A study of Mus musculus with 20 samples.

Results

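The sarcomeric myosin heavy chains and the myomesins are the parts of the thick filament that are followed here through mouse whole trachea. The set was chosen by its family after Myh6 and Myh7 had stood out by their higher signal in uninjured Myd88 knockout than in uninjured wild-type tracheas. Members were then taken by name: every non-control array probe annotated to Myh1, Myh2, Myh3, Myh4, Myh6, Myh7, Myh8, Myom1 or Myom2 was kept as a separate measurement. This gave 22 probes of 9 genes among the 41174 probes of the array, and 20 of the 22 could be tested, since their signal was well above background on 10 or more of the 20 arrays, as it was for 26063 probes in all. The pair that fell short belonged to Myh8. Just outside the limit, Myh8 probe 2 was above background on 8 arrays, and just inside it, Myom1 probe 1 was above background on 10 arrays, all of them wild-type.

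The study compared adult C57/Bl6 wild-type mice with Myd88 knockout (Myd88KO) mice, which lack the adaptor that carries signals from most Toll-like receptors and from the interleukin-1 receptor. Tracheas were taken at about 4 months of age, either from uninjured mice or 3 days after oropharyngeal instillation of 2% polidocanol, a detergent that strips the airway epithelium. Each of the 4 groups (wild-type uninjured, Myd88KO uninjured, wild-type injured, Myd88KO injured) held 5 one-colour arrays, 1 for each trachea sample. Whole tracheas were cleared of excess connective tissue but not dissected into layers. The Myd88KO line had been backcrossed to C57/Bl6JOlaHsd for several generations and was bred by crossing knockouts, while the wild-type mice came from a separate colony in the same facility. Genotype and colony therefore cannot be told apart in any comparison below.

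A sarcomere shortens when the heads of myosin heavy chains in the thick filament pull on actin. Each adult muscle fibre is marked by its heavy chain: Myh7 in slow fibres and Myh2 (IIa), Myh1 (IIx) or Myh4 (IIb) in fast ones. Myh6 is the chain of the atrium and the adult mouse ventricle, and Myh3 and Myh8 are those of embryonic and perinatal muscle. Myomesins tie neighbouring thick filaments together at the M band in the middle of the sarcomere, with Myom1 in all striated fibres and Myom2 mainly in fast fibres and heart. In a trachea preparation striated muscle can come from laryngeal and neck muscle, whereas the trachealis is smooth muscle and uses Myh11.

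The heavy chain genes lie on chromosomes 11 and 14, and the bases before their starts are printed because Myh7 and Myh6 separated the genotypes and the chromosome 11 genes overlapped. The windows are the 250 bases upstream of the RefSeq start on GRCm38.p6, in the direction of transcription. For the fast and perinatal chains of chromosome 11, capitals mark the longest run of bases that Myh1 (chr11:67199852-67200101), Myh2 (chr11:67170777-67171026), Myh4 (chr11:67237562-67237811) and Myh8 (chr11:67276874-67277123), all on the plus strand, have in common.
Myh1: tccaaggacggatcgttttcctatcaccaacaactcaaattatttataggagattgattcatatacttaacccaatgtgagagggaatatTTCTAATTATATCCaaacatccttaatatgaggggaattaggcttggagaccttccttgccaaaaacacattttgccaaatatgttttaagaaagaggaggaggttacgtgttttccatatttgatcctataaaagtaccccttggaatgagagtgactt
Myh2: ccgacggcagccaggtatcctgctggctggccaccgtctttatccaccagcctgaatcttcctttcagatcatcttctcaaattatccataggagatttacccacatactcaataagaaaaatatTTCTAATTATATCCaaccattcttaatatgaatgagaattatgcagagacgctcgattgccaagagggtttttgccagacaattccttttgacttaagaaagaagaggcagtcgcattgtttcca
Myh4: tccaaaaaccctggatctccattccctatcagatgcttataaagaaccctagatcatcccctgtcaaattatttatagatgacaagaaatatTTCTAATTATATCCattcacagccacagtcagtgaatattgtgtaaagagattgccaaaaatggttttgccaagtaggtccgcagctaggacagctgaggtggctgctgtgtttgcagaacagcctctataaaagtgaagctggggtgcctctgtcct
Myh8: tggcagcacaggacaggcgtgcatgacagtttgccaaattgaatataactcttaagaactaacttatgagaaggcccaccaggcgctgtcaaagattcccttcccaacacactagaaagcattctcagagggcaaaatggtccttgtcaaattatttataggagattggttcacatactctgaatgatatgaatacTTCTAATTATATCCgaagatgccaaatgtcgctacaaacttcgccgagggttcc
The shared run, TTCTAATTATATCC, is 14 bases long. Searched on both strands, it occurred in 4 of 32817 promoter windows of this length (0.0122%), and those 4 belonged to Myh1, Myh2, Myh4 and Myh8. It began 160 bases before the start of Myh1, 125 before Myh2, 158 before Myh4 and 54 before Myh8. The windows of Myh3, Myh6, Myh7 and Myom1 did not hold these letters.

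The slow and cardiac chains lie side by side on chromosome 14, on the minus strand. For Myh7 (chr14:54994550-54994799, the first of its 2 annotated windows by position) and Myh6 (chr14:54966608-54966857), capitals mark the longest run that this pair has in common.
Myh7: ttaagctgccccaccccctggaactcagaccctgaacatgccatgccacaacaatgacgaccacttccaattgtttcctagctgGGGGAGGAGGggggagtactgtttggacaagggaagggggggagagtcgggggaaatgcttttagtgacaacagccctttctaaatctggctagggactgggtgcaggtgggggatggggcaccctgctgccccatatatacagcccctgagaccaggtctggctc
Myh6: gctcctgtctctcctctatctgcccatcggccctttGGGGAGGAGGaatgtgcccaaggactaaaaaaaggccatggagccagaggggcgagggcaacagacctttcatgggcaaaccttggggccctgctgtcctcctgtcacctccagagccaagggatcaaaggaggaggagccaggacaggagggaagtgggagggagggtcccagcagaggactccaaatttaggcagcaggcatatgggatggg
That run, GGGGAGGAGG, is 10 bases long and was present, on either strand, in 409 of the 32817 windows (1.25%). It is a description of letters and names no binding factor.

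All levels below are log2 intensities relative to the 75th percentile of the same array, so a level of 0 is a probe as bright as that percentile, and a difference of 1 is a 2-fold change. A probe's level depends on its own sequence, so levels were compared between groups and never between probes. A probe was called in a comparison when its adjusted p from limma was under 0.01. Between 57.5% and 67.8% of the spots of an array were well above background. The 6 airway epithelium markers and the 5 cartilage markers were above background on all 20 arrays, as were the 8 skeletal muscle markers, so each array carried RNA of striated muscle. The single Myd88 probe was above background on every Myd88KO array (1.54 to 2.09, against 1.94 to 2.80 in wild-type), and it was not determined whether it lies within the deleted part, so it does not check the labels. Myd88KO-injured replicate 5 stood apart: its score on the wild-type injury response was -0.022, within the range of the uninjured arrays (-0.0694 to 0.125), while the other 4 Myd88KO-injured arrays ranged from 0.337 to 0.973. Wild-type uninjured replicate 3 stood apart in oesophageal and squamous markers, with a mean level of 7.11 over 4 genes (Krt4, Krt13, Lor and Sprr3) against at most 3.17 elsewhere. Calls were recomputed without them, and values that moved are given both ways.

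Myh7, the slow heavy chain, was higher in Myd88KO tracheas both before and after injury. In uninjured wild-type tracheas Myh7 probe 1 read 1.09, 1.12, 0.26, 1.53 and 1.23, and in uninjured Myd88KO tracheas it read 3.43, 2.81, 3.07, 3.05 and 3.99. The lowest Myd88KO array was above the highest wild-type array, and the means differed by 2.22. This uninjured contrast is the one in which Myh6 and Myh7 had drawn attention, so it is described and not tested.

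The injured arrays were not part of that contrast, but the study also left out transcripts that changed with injury. A gene that was high in uninjured Myd88KO tracheas and did not change with injury would be high in the injured ones too, so the injured test below is not independent support for Myh7 or Myh6. In injured wild-type tracheas Myh7 probe 1 read -0.10, 0.57, 0.56, 0.58 and 0.94, and in injured Myd88KO tracheas it read 2.13, 2.69, 2.42, 2.20 and 2.98. Again no array of one genotype reached the range of the other. The mean was 0.51 ± 0.38 (SD, n = 5) in wild-type and 2.48 ± 0.35 (SD, n = 5) in Myd88KO, a difference of 1.97 (SE 0.26, 95% confidence interval 1.44 to 2.51, 3.93-fold, adjusted p = 0.000176). The call of both Myh7 probes was lost with the methods' one-way test (adjusted p = 0.0254 and 0.0275), which called 21 of all probes, and within scan day 2, with 2 arrays per group (adjusted p = 0.0186 and 0.0247). Each slide carried 1 array of every group, and the difference within a slide ran from 1.62 to 2.24, with Myd88KO higher on 5 of 5 slides.

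The other Myh7 probe lies 5 bases further along (49837280 to 49837339 against 49837275 to 49837334 on chromosome 14 in the array files, whose build is not stated), so it is a repeat measurement of the same stretch and not independent. Myh7 probe 2 was higher by 2.22 in uninjured Myd88KO tracheas, and by 2.04 in injured ones (SE 0.27, adjusted p = 0.000267). Without Myd88KO-injured replicate 5 the injured differences of the pair of probes were 1.85 (adjusted p = 0.000842) and 1.91 (adjusted p = 0.0012). Without wild-type uninjured replicate 3, which held the lowest uninjured Myh7 level, the uninjured differences were 2.03 and 2.01. In bulk RNA, more slow fibres in the sample and more Myh7 RNA per fibre cannot be told apart.

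**Figure D1:**
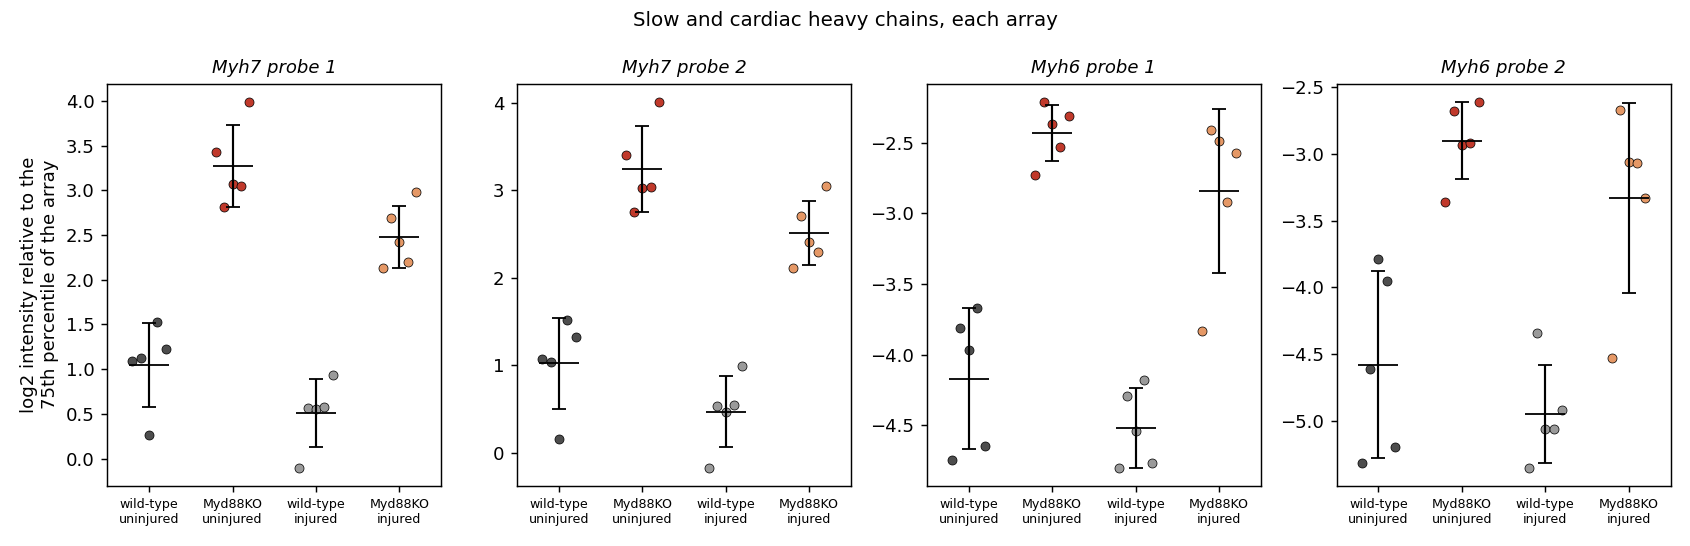
Level of each array (points) for the Myh7 and Myh6 probes, as log2 intensity relative to the 75th percentile of the array, in the 4 groups of 5 arrays; horizontal marks are means and bars are SD, and each panel has its own vertical axis. For both Myh7 probes and Myh6 probe 1 the Myd88KO arrays lie above all wild-type arrays of the same treatment, whereas 1 injured Myd88KO array of Myh6 probe 2 lies within the injured wild-type range.

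Myh6, the heavy chain of the atrium and adult mouse ventricle, was near the detection limit in wild-type tracheas and above it in Myd88KO tracheas. Myh6 probe 1 was above background on 3 of 5 uninjured and 3 of 5 injured wild-type arrays, and on 5 of 5 arrays of each Myd88KO group. It read -4.75, -3.81, -3.97, -3.67 and -4.65 in uninjured wild-type and -2.73, -2.21, -2.37, -2.53 and -2.31 in uninjured Myd88KO tracheas, a difference of the means of 1.74 with no overlap. After injury the wild-type arrays read -4.80, -4.29, -4.54, -4.18 and -4.77, and the Myd88KO arrays read -3.83, -2.41, -2.49, -2.92 and -2.57. The injured groups were also separate, with Myd88KO replicate 1 closest to wild-type. The injured difference was 1.67 (SE 0.26, 95% confidence interval 1.14 to 2.21, adjusted p = 0.00124), and 1.61 (adjusted p = 0.00515) without Myd88KO-injured replicate 5. The call was lost with normexp background correction, where the difference was 0.68 (adjusted p = 0.0267), in a fit of the injured groups alone (adjusted p = 0.0332), within scan day 2 (adjusted p = 0.037) and with the methods' one-way test (adjusted p = 0.132). Since 4 of the 10 wild-type arrays were not above background, the size of the difference is uncertain.

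Myh6 probe 2 was above background on all 10 Myd88KO arrays but on only 2 uninjured and 1 injured wild-type arrays. Its uninjured means differed by 1.67, and its injured means by 1.61 (SE 0.33, adjusted p = 0.0205), which did not pass the threshold. Most wild-type values of this probe were background, so these differences do not measure a fold change. Both Myh6 probes met the detection condition only with the Myd88KO arrays, where they were higher, so their tests are not free of that selection. The injured groups overlapped through Myd88KO replicate 1 at -4.53, against a highest wild-type level of -4.34, although Myd88KO was the higher array on 5 of 5 slides. Without that array the difference was 1.91 (adjusted p = 0.00137), and it was 1.61 (adjusted p = 0.00282) in a fit that blocked on the slide, so the call for this probe depends on 1 array and on the treatment of the slide.

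The levels of the fast heavy chains Myh4, Myh1 and Myh2 overlapped between the genotypes. Myh4, the IIb chain, read 8.34, 8.02, 8.05, 7.94 and 8.76 with probe 2 in uninjured wild-type and 8.50, 8.21, 8.36, 7.89 and 8.65 in uninjured Myd88KO tracheas. After injury the same probe read 8.51, 7.97, 7.88, 8.07 and 8.37 in wild-type and 8.24, 8.17, 7.76, 7.76 and 8.60 in Myd88KO. The injured difference was -0.05 (95% confidence interval -0.47 to 0.37, adjusted p = 0.944). For Myh4 probe 1, for which 1 flagged spot on wild-type uninjured replicate 3 was left out, the injured difference was 0.19 (95% confidence interval -0.32 to 0.69). These differences were -0.18 (probe 2) and -0.02 (probe 1) without Myd88KO-injured replicate 5.

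Myh1, the IIx chain, was measured by 3 probes that did not behave alike. Probe 2 ranged from 7.14 to 8.06 in uninjured wild-type and from 6.76 to 8.18 in uninjured Myd88KO tracheas, and differed by 0.02 after injury (95% confidence interval -0.68 to 0.71). Probe 1 differed by 0.14 after injury (95% confidence interval -0.74 to 1.02). Without Myd88KO-injured replicate 5 the differences were -0.17 for probe 2 and -0.13 for probe 1. Probe 3 (67306066 to 67306125 on chromosome 11 in the array files, next to probe 2 at 67306002 to 67306061) was lower in Myd88KO on 5 of 5 slides both before injury (difference -0.59) and after it (-0.70, SE 0.23, adjusted p = 0.207), but the groups overlapped and the injured difference did not pass the threshold. Across the 20 arrays probe 3 followed probe 2 only weakly (Pearson r = 0.31, a description over arrays that share slides and groups).

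Myh2, the IIa chain, gave 3 probes, of which probes 2 and 3 overlap in position. Probe 2 ranged from 4.55 to 6.24 in uninjured wild-type, from 4.80 to 6.5 in uninjured Myd88KO, from 4.26 to 5.97 in injured wild-type and from 4.90 to 6.38 in injured Myd88KO tracheas. The 4 ranges overlapped. The injured differences of the 3 probes were 0.36 (95% confidence interval -0.34 to 1.07), 0.27 (SE 0.40) and 0.50 (95% confidence interval -0.33 to 1.33), with adjusted p from 0.643 to 0.831. They were 0.19, 0.06 and 0.28 without Myd88KO-injured replicate 5.

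**Figure D2:**
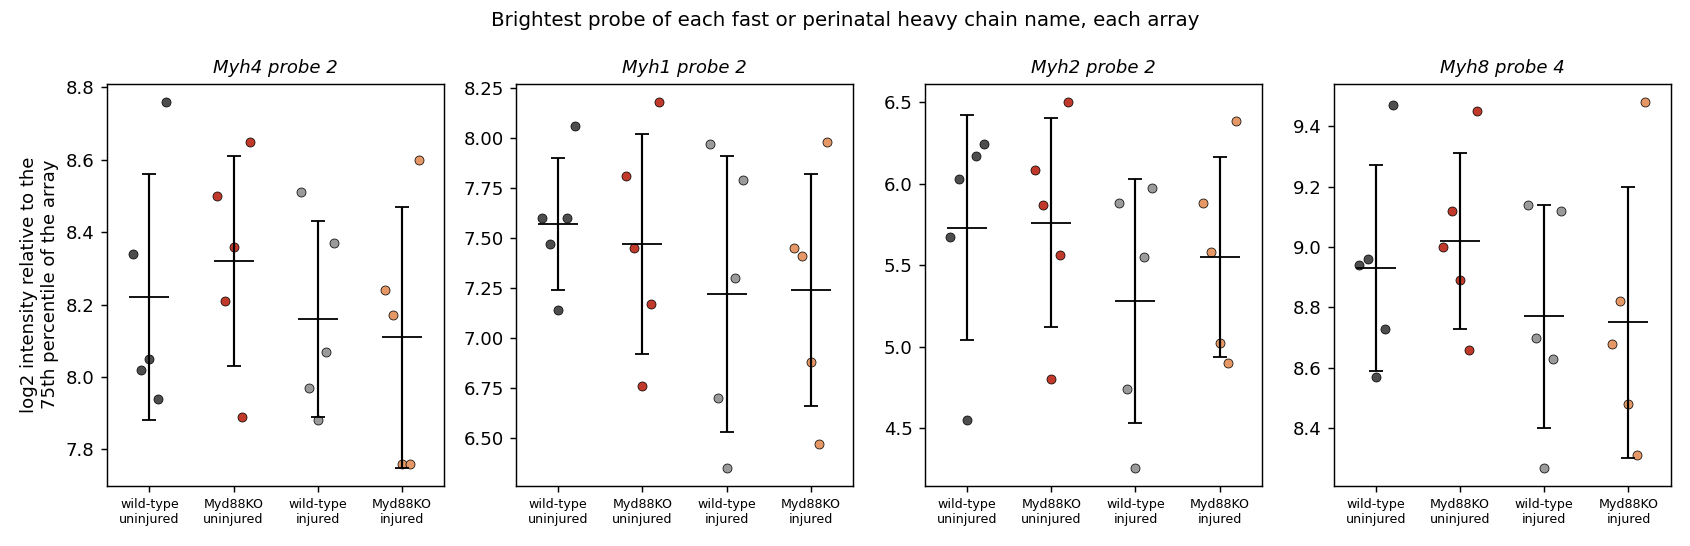
Level of each array (points) for 1 probe each of Myh4, Myh1, Myh2 and Myh8, as log2 intensity relative to the 75th percentile of the array, in the 4 groups of 5 arrays; horizontal marks are means and bars are SD, and each panel has its own vertical axis. The Myd88KO and wild-type arrays overlap in every panel, before and after injury.

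The slow and fast chains were also set side by side on each array. The mean of 4 fast probes (Myh1 probe 2, Myh2 probes 2 and 3, Myh4 probe 2, those with a mean level over 4 and a value on every array) ranged from 6.13 to 7.37 in uninjured wild-type, 6.27 to 7.52 in uninjured Myd88KO, 5.72 to 7.11 in injured wild-type and 6.11 to 7.45 in injured Myd88KO tracheas. The mean of both Myh7 probes over the same groups ranged from 0.21 to 1.52, 2.78 to 4.00, -0.14 to 0.97 and 2.12 to 3.01. Subtracting the fast mean from the Myh7 mean on each array left group means that differed between the genotypes: -5.83 ± 0.22 and -3.66 ± 0.36 (SD, n = 5) in uninjured wild-type and Myd88KO, and -6.04 ± 0.78 and -4.22 ± 0.42 (SD, n = 5) after injury. These are differences between unlike probes, so only their change between groups can be read, and they were not tested.

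**Figure D3:**
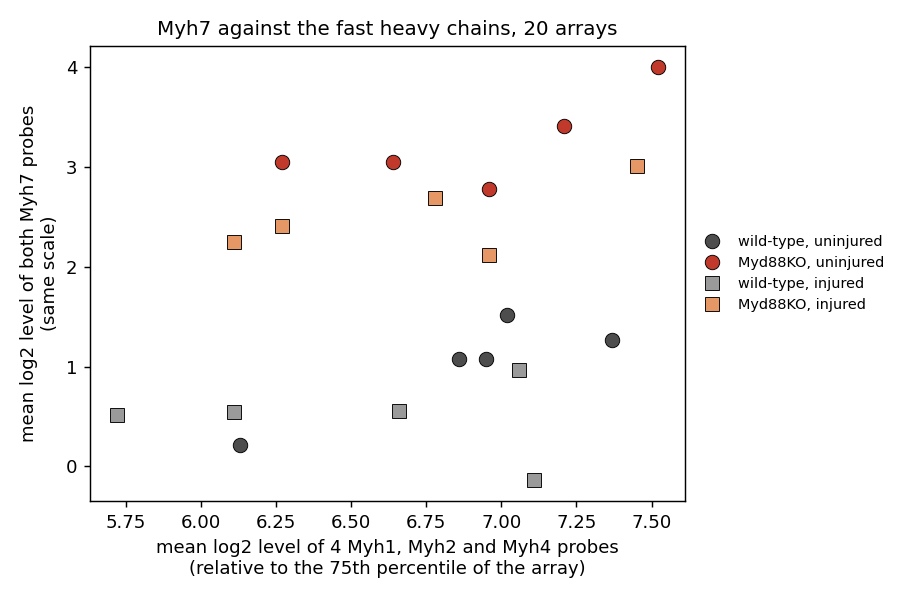
Each of the 20 arrays by the mean log2 level of 4 Myh1, Myh2 and Myh4 probes (horizontal) and of both Myh7 probes (vertical), both relative to the 75th percentile of the array; colours and shapes give the 4 groups. The genotypes overlap on the horizontal axis, with wild-type from 5.72 to 7.37 and Myd88KO from 6.11 to 7.52. They separate on the vertical axis at every point, with wild-type at most 1.52 and Myd88KO at least 2.12.

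Of the developmental chains, Myh3 gave a difference short of the threshold, and the probes of Myh8 did not behave alike. Myh3 probe 2, above background on all 20 arrays, read -3.0, -4.37, -4.76, -3.87 and -2.76 in injured wild-type and -2.39, -2.20, -3.59, -3.31 and -1.08 in injured Myd88KO tracheas. Myd88KO was higher on 5 of 5 slides, but the groups overlapped and the difference of 1.24 (SE 0.49, adjusted p = 0.291) did not pass the threshold. Without Myd88KO-injured replicate 5, its highest array, the difference was 0.88 (adjusted p = 0.538). The overlapping Myh3 probe 1 gave 1.21 (adjusted p = 0.291), or 0.91 (adjusted p = 0.529) without Myd88KO-injured replicate 5. In uninjured tracheas Myd88KO was higher on only 2 of 5 slides for both Myh3 probes.

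Myh8, the perinatal chain, had 4 probes along the gene. Probe 4 was above background on every array and read from 8.27 to 9.48, with an injured difference of -0.02 (95% confidence interval -0.50 to 0.46, adjusted p = 0.982), or -0.20 without Myd88KO-injured replicate 5. Probe 3 was above background on no array, probe 2 on 8 and probe 1 on 11. Probe 1 scattered widely within every group, from -7.26 to -2.26 in uninjured wild-type, where wild-type replicate 3 was the highest array and the only one above background. Its injured difference was -0.44 (SE 0.96, adjusted p = 0.893), or -1.06 (adjusted p = 0.718) without Myd88KO-injured replicate 5. Across the arrays probe 4 correlated with Myh4 probe 1 (19 arrays) and probe 2 (20 arrays) at r = 0.89 and 0.90 and with Myh8 probe 1 at r = 0.43. Probe sequences were not used here, so whether probe 4 also binds the RNA of another heavy chain was not tested, and its level is not taken as a level of Myh8.

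The M band gene Myom1 had 3 probes, and 1 of them separated the genotypes completely. Myom1 probe 1 read -2.05, -2.42, -2.43, -1.81 and -1.48 in uninjured wild-type and -7.08, -5.78, -6.35, -5.58 and -6.66 in uninjured Myd88KO tracheas. After injury it read -1.73, -3.58, -2.93, -3.56 and -2.25 in wild-type and -6.89, -7.04, -5.45, -6.82 and -6.10 in Myd88KO. It was above background on all 10 wild-type arrays and on 0 of 10 Myd88KO arrays, so the Myd88KO values give only a bound. Against the lowest signal counted as well above background on each array, Myd88KO was at least 7.88-fold lower before injury and at least 4.69-fold lower after it (fitted injured difference -3.65, SE 0.38, adjusted p = 1.08e-05). Since the probe met the detection condition through its wild-type arrays alone, it had to differ in order to be tested, and its call is no support for a change in the gene.

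The other 2 Myom1 probes, which lie at higher positions on chromosome 17 (69372270 to 69372329 and 69405862 to 69405921 in the array files, against 69362625 to 69362684 for probe 1), had genotypes that overlapped. Probe 2 ranged from -1.56 to -0.42 in uninjured wild-type and from -2.18 to -0.76 in uninjured Myd88KO tracheas, and differed by 0.27 after injury (95% confidence interval -0.54 to 1.08, adjusted p = 0.824). Probe 3 ranged from 3.55 to 4.31 and from 3.39 to 4.41 in these groups and differed by -0.16 after injury (95% confidence interval -0.82 to 0.51, adjusted p = 0.886). The probes of this gene therefore disagreed, and why they did was not tested. The differences were 0.03 (probe 2) and -0.45 (probe 3) without Myd88KO-injured replicate 5.

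Myom2, the fast fibre and heart myomesin on chromosome 8, was measured by 1 probe. It read 4.32, 6.05, 5.29, 5.85 and 5.79 in uninjured wild-type and 6.09, 5.72, 3.63, 5.49 and 6.45 in uninjured Myd88KO tracheas, with means of 5.46 and 5.48. After injury the means were 5.05 and 5.06, the latter over 4 arrays because the spot of Myd88KO replicate 5 was flagged and left out. The injured difference was 0.01 (95% confidence interval -1.15 to 1.16, adjusted p = 0.997).

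**Figure D4:**
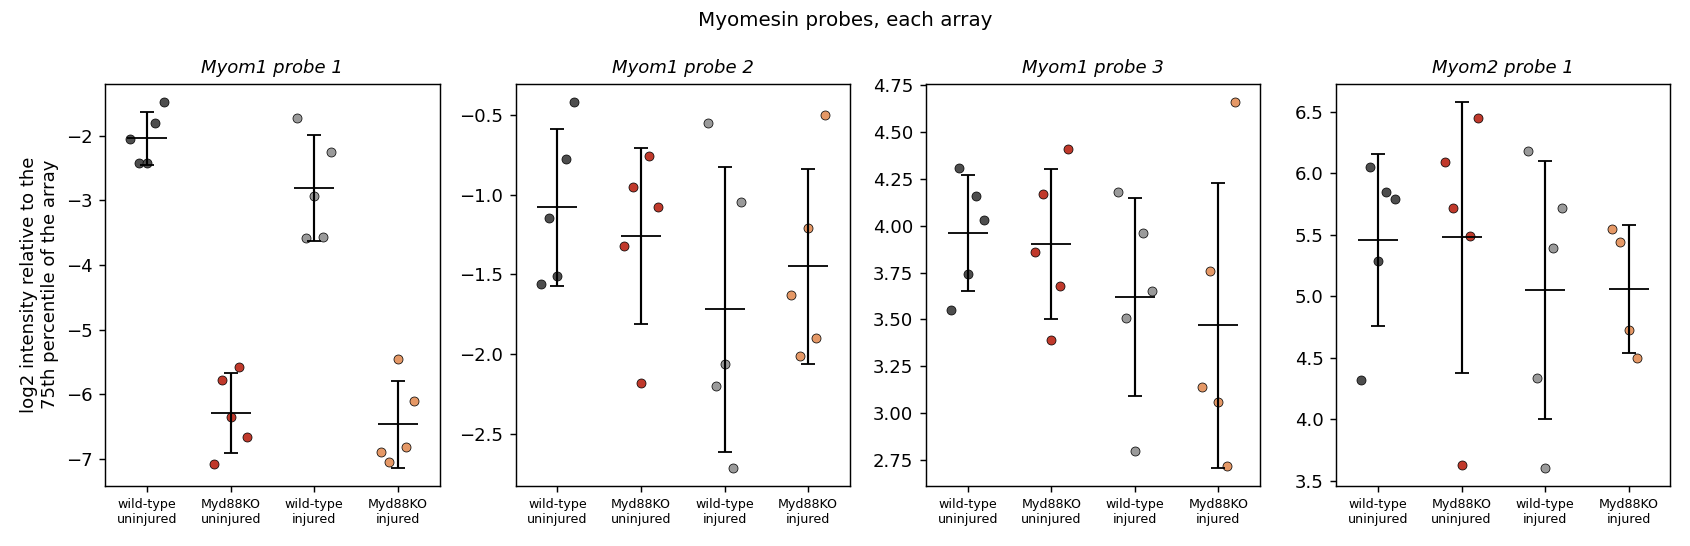
Level of each array (points) for the 3 Myom1 probes and the Myom2 probe, as log2 intensity relative to the 75th percentile of the array, in the 4 groups; horizontal marks are means and bars are SD, with 5 arrays per group except 4 for Myom2 in injured Myd88KO. Myom1 probe 1 lies between -3.58 and -1.48 on the wild-type arrays and at or below -5.45 on the Myd88KO arrays, where it was not above background; the other panels overlap.

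Over the 20 tested probes, 4 were called between injured Myd88KO and wild-type tracheas: both Myh7 probes and Myh6 probe 1 higher and Myom1 probe 1 lower. The Myh7 probes are a repeat of 1 measurement and Myom1 probe 1 had to differ to be tested. Myh6 probe 1 met the detection condition only with the Myd88KO arrays, where it was higher. The count is therefore not read against the share over all probes. Over all tested probes 0.38% were called in this comparison, 0.15% higher and 0.23% lower. These 4 probes also had non-overlapping injured groups, against 1.96% of all tested probes. The median difference of the 20 probes was 0.23, beside -0.03 over all tested probes, and 14 of the 20 were above 0. Without Myd88KO-injured replicate 5 the median was 0.02 and 11 of the 20 were above 0, so the upward lean rested on that array. In uninjured tracheas 4 of the 20 passed the same threshold, where 0.384% of all probes did, and 5 had separate groups, where 2.51% of all probes did. These uninjured counts follow from how the genes were chosen and nothing is read from them.

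**Figure D5:**
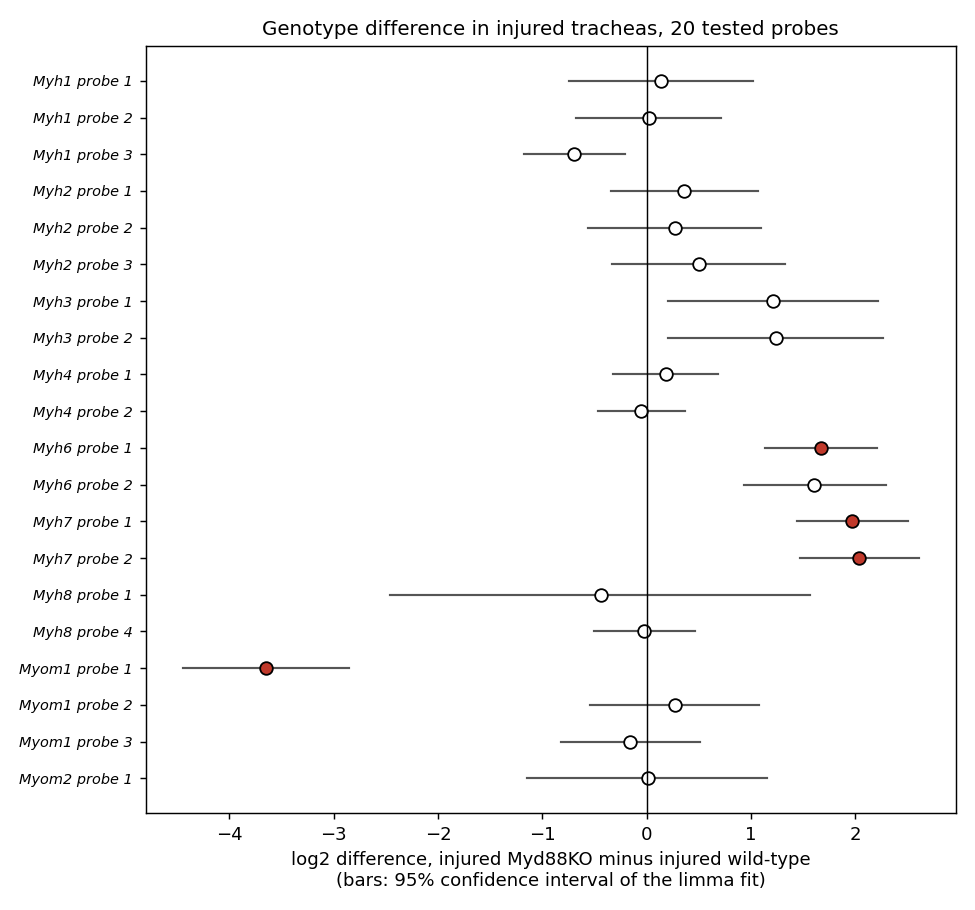
Log2 difference, injured Myd88KO minus injured wild-type, for the 20 tested probes (points), with the 95% confidence interval of the limma fit over 20 arrays (bars); filled points passed an adjusted p of 0.01. The filled points are Myh6 probe 1 and both Myh7 probes to the right of 0 and Myom1 probe 1 to the left, at -3.65.

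Injury alone did not change any of these probes beyond the threshold. In wild-type tracheas 0 of 20 probes were called by limma 3 days after polidocanol, where 5.26% of all tested probes were, and 1 of 20 had an unadjusted p under 0.05, where 26.4% of all probes did. The methods' one-way test also called 0. The differences leaned downward, with 19 of 20 below 0 and a median of -0.36 beside 0.00 over all probes (-0.46 without wild-type uninjured replicate 3). Other striated muscle genes leaned the same way, so the lean is not particular to this set. Above 0 were 1 of 18 fast sarcomere probes (median -0.35), 1 of 26 probes common to fibre types (median -0.54) and 5 of 24 slow and cardiac probes (median -0.40). Myh7 probe 1 differed by -0.54 (SE 0.26, adjusted p = 0.188), Myom1 probe 1 by -0.77 (adjusted p = 0.207) and Myh4 probe 2 by -0.06 (adjusted p = 0.878). Myh8 probe 1 was the 1 probe above 0, at 1.04 (SE 0.96, adjusted p = 0.531). Without wild-type uninjured replicate 3 the differences were -0.73 (adjusted p = 0.0544) for Myh7 probe 1 and 1.79 (adjusted p = 0.21) for Myh8 probe 1.

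In Myd88KO tracheas 0 of 20 probes were called after injury, where 0.376% of all probes were, and 2 of 20, both Myh7 probes, had an unadjusted p under 0.05, where 19.5% of all probes did. The share of 0.376% was 98 probes and depended on 1 array. Without Myd88KO-injured replicate 5, 1075 of all tested probes were called, still with 0 of these 20. The methods' one-way test called 0 here as well, as it did over all probes. The median was -0.24 beside -0.07 over all probes, with 16 of 20 below 0, and without Myd88KO-injured replicate 5 it was -0.42 with 20 of 20 below 0. The fast, shared and slow or cardiac sarcomere lists leaned downward here as well, with medians of -0.49, -0.28 and -0.37. Myh7 probe 1 differed by -0.79 (SE 0.26, adjusted p = 0.095) and Myh7 probe 2 by -0.73 (adjusted p = 0.148). Without Myd88KO-injured replicate 5 these were -0.91 (adjusted p = 0.0309) and -0.87 (adjusted p = 0.0512), still short of the threshold. This comparison shares its uninjured Myd88KO arrays with the contrast that drew attention to Myh7, in which they were high.

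The difference between the injury responses, which contains that uninjured contrast, was tested directly. It was called for 0 of 20 probes by limma, where 0% of all tested probes were, and 0 had an unadjusted p under 0.05, where 10.4% of all probes did. For Myh7 probe 1 it was -0.25 (SE 0.36, adjusted p = 0.83) and for Myh6 probe 1 -0.06 (SE 0.36, adjusted p = 0.962). For Myom1 probe 1 it was 0.60 (SE 0.54, adjusted p = 0.705) and for Myh3 probe 1 1.03 (SE 0.68, adjusted p = 0.589). The 95% confidence interval of this difference ran from -1.01 to 0.51 for Myh7 probe 1 and from -0.39 to 2.46 for Myh3 probe 1. Without wild-type uninjured replicate 3, without Myd88KO-injured replicate 5 and without both, the Myh7 probe 1 value was -0.05, -0.37 and -0.18. In the same order, the Myh3 probe 1 value was 1.17, 0.73 and 0.87.

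The heavy chains varied together across arrays in blocks. After each group's mean was removed, Myh1 probe 2 and Myh2 probe 2 correlated at r = 0.92 over the 20 arrays. Over the 19 arrays with a Myom2 value, Myom2 correlated at 0.89 with both Myh3 probe 2 and Myh2 probe 1. Myh7 probe 1 followed the fast chains less closely, at 0.53 with Myh2 probe 2, 0.40 with Myh1 probe 2 and 0.32 with Myh4 probe 2. Myh6 probe 1 and Myh7 probe 1 correlated at 0.89 over all arrays but at 0.22 once the group means were removed, where the genotype difference no longer enters. These values describe arrays that share slides and that differ in how much muscle RNA each carried.

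The tested probes most like Myh7 probe 1 over the 20 arrays belonged to Zfp704, a zinc finger gene (r = 0.945), Nnt, the mitochondrial transhydrogenase that makes NADPH (0.939 and 0.936), Cuedc1 (0.937) and Tmx4, a thioredoxin-like membrane protein (0.934). The probes most like Myh6 probe 1 were 2 of Nnt (0.968 and 0.964), Clec16a (0.941), Crk (0.919) and Cuedc1 (0.917). Group means were not removed, so a probe that separates the genotypes can rank high here without varying with Myh7 or Myh6 within groups. The probes most like Myh4 probe 1 were 2 of the glycolytic enzyme Aldoa (0.942 and 0.938), Tcea3 (0.941), Art1 (0.941) and the muscle calcium channel subunit Cacna1s (0.938), each over 18 or 19 arrays. Those most like Myom2 were the fast myosin-binding protein Mybpc2 (0.922), Myo18b (0.907), Myh2 (0.894), Asb11 (0.888) and Cyrib (0.886), also over 18 or 19 arrays.

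Slow and cardiac partners of Myh7 were followed through 18 genes, 17 of them tested with 24 probes. Of these 0 were called between injured Myd88KO and wild-type tracheas, where 0.38% of all probes were, and their median difference was 0.03 beside -0.03 over all probes. The largest differences were those of Tnni1, slow skeletal troponin I, at 1.95 (adjusted p = 0.0204) and 1.62 (adjusted p = 0.0236), Myl2, the ventricular and slow regulatory light chain, at 1.36 (adjusted p = 0.189), and Tnnc1, slow and cardiac troponin C, at 1.15 (adjusted p = 0.0667). None passed the threshold. In uninjured tracheas the same probes differed by 1.61 and 1.42 (Tnni1), 0.84 (Myl2) and 1.47 (Tnnc1), described without a test. The Tnni1 probe with 1.95 was above background on 2 of 5 uninjured and 1 of 5 injured wild-type arrays. Its differences, 1.95 and 1.61, therefore do not measure a fold change. This Tnni1 probe also met the detection condition only with the Myd88KO arrays, where it was higher. After injury 12 of the 24 probes were above 0. Differences below 0 included those of Myl7, the atrial regulatory light chain (-0.89, adjusted p = 0.385, and -1.07 in uninjured tracheas), and Mybpc3, cardiac myosin-binding protein C (-0.66, adjusted p = 0.444). Other slow fibre genes had smaller differences after injury, 0.21 for Tnnt1, slow troponin T, and -0.06 and -0.01 for the pair of probes of Myl3, the slow and ventricular essential light chain.

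Fast partners gave differences near 0. Of 18 tested probes of 12 fast sarcomere genes, 0 were called between injured Myd88KO and wild-type tracheas, where 0.38% of all probes were. At that share little can be read from 0 calls in this list or those that follow. The median difference of the fast probes was 0.05. Their largest differences were -0.44 for a probe of Ryr1, the calcium release channel, and 0.43 for Pvalb, the calcium buffer parvalbumin. Among 26 probes of 12 genes common to fibre types 0 were called (median 0.13), with a probe of Ttn, the giant spring protein titin, at 0.61 (adjusted p = 0.615). Among 13 probes of 8 other thick filament and M band genes 0 were called (median -0.05), and Myom3, another myomesin, differed by -0.15 (adjusted p = 0.825). Among 12 probes of 8 muscle regulatory genes 0 were called (median 0.04).

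After injury in wild-type tracheas 1 probe of the slow and cardiac list was higher and 1 was lower. Tnnt2, cardiac troponin T, fell by 2.56 (adjusted p = 0.000931), and a probe of Tpm3, whose tropomyosin products are also made outside muscle, rose by 0.76 (adjusted p = 0.00311). In Myd88KO tracheas the Tnnt2 difference was -1.75 (adjusted p = 0.0303). No probe of the fast, shared, thick filament or regulatory lists was called in either genotype. Over all probes 5.26% were called in wild-type and 0.376% in Myd88KO. The Myd88KO share was 98 probes, against 1075 without Myd88KO-injured replicate 5.

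Genes next to these loci were looked at by the positions in the array files. Within 500 kb of Myh6 and Myh7 on chromosome 14, 33 other tested probes of 23 genes gave 0 calls between the genotypes before or after injury, with injured differences from -1.37 to 0.44. Around the chromosome 11 cluster 0 of 12 probes were called, around Myom1 0 of 16 and around Myom2 0 of 9. Over all probes 0.38% were called after injury and 0.384% before it, so little can be read from 0 calls in windows of this size.

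Markers of other tissues are given beside the genotype difference. Over all tested probes 0.38% were called between the injured genotypes and 0.384% between the uninjured ones. At these shares little can be read from 0 calls in such short lists. The mean level of 8 skeletal muscle markers ranged from 5.71 to 7.08 in uninjured wild-type, 5.81 to 6.93 in uninjured Myd88KO, 4.90 to 6.20 in injured wild-type and 4.96 to 6.92 in injured Myd88KO tracheas, with 0 of 10 probes called between the injured genotypes. The 9 heart muscle markers ranged from -0.85 to -0.30, -0.96 to -0.28, -1.30 to -0.85 and -1.42 to -0.44 in the same groups, with 0 of 12 probes called between the injured genotypes and a median difference of -0.12. The defining markers Nppa and Nppb differed by -0.33 (Nppa) and by -0.53 and -0.50 (Nppb) after injury, with adjusted p from 0.416 to 0.516, and another Nppa probe was above background on 0 arrays. Over the whole list 4 of 12 probes were above 0. Smooth muscle markers had a mean level of 3.90 to 4.26 in uninjured wild-type and 4.32 to 4.67 in uninjured Myd88KO tracheas, with no overlap and 10 of 11 probes above 0 but 0 called, and of 3.78 to 4.53 and 3.70 to 4.53 after injury. Adipocyte markers ranged from 1.26 to 2.31 and from 1.70 to 2.69 in the uninjured groups, with 5 of 5 probes above 0 and 0 called. For brown adipocyte markers, of which 0 of 3 probes were called in uninjured tracheas, the mean of Ucp1, Cidea and Elovl3 ranged from 0.23 to 1.82 and from 2.94 to 3.41 in uninjured wild-type and Myd88KO, and from -1.20 to 1.89 and from 0.75 to 3.69 after injury, where again 0 were called (Elovl3 3.30, adjusted p = 0.0199). The part of these markers in the Myh7 and Myh6 differences was not tested.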

How the data were processed

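Total RNA of 20 whole tracheas was labelled with Cy3 and hybridised to one-colour Agilent mouse arrays. The authors deposited the scanner output of Feature Extraction, whose background-corrected processed intensity per spot was used, and a table of the same intensity values, used as an alternative. Flagged outlier spots were left out, spots of a probe were averaged as log2 values and each array's 75th percentile was subtracted. With limma (version 3.58.1, R 4.3.3) all 20 arrays were fitted with 1 term per group, and p-values were adjusted within each comparison by Benjamini-Hochberg over 26063 probes. The text names every probe of the 9 genes and the 5 probes most like chosen ones, and gives neighbours within 500 kb as counts. Genes named from the lists include large differences and, for some lists, members with small or opposite ones. They are not a full ranking. Genes and lists were chosen with earlier results of these data known. The fit was tested on simulated data. Alternatives were another scaling, background correction, source table, filter, block, weighting or test, and leaving out each array. Same-numbered arrays shared a slide: their deviations correlated with a median r of 0.24 (23 of 30 pairs over 0.1), against -0.08 for other pairs. Replicates were separate trachea samples. The number of arrays limits the precision. Probe sequences were not analysed here. Promoter windows are those of RefSeq (GRCm38.p6) and were found for 8 of the 9 genes. 1 gene of a list is not reported here by name.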

Additional observations from a re-analysis of the deposited data

Results flagged for a closer look

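Among 88 combinations of a probe and a group, 2 held an array far from the other 4, by a gap of more than 0.71 of the group's whole range; chance alone gives such a gap in about 1 of 20 groups. Both were Myh8 probes near the detection limit. Myh8 probe 1 read -6.32 on Myd88KO uninjured replicate 3, where it was not above background, against -3.58 to -2.81 on the other 4 arrays of that group. Myh8 probe 2 read -2.36 on Myd88KO-injured replicate 5, where it was above background, against -7.02 to -6.51 on the other 4. The latter array is the one whose injury score lay within the uninjured range. The test of the difference between the injury responses called no probe of these genes. It called 0% of all tested probes, so nothing is read from this about these genes.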

How the results depend on the processing

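The counts of called probes were 0 for injury in wild-type, for injury in Myd88KO and for the difference between the injury responses in every alternative run. Between injured genotypes, 4 probes were called in the reported fit and 4 to 5 when any 1 array was left out. This became 2 with normexp background correction, 2 when only probes above background on all 20 arrays were tested (which removes Myh6 and Myom1 probe 1), 1 within scan day 2 (2 arrays per group) and 0 with the methods' one-way test. Over all probes these last 2 settings called 1251 and 21, against 99. Between uninjured genotypes, the described count of 4 became 2 with only probes above background on all arrays, 0 within scan day 2 and 1 with the one-way test (3 and 46 over all probes in the latter 2, against 100), and was 4 to 5 when 1 array was left out. With the replicate block (the slide), which gave the injured differences 1.97 and 2.04 for the Myh7 probes, Myh6 probe 2 was called in addition (adjusted p = 0.00282) and no call was lost. Fitting the 2 injured groups alone left Myh6 probe 1 uncalled (adjusted p = 0.0332). No called difference changed sign. Over the other settings, left-out arrays aside, the injured differences ranged from 1.86 to 2.14 for Myh7 probe 1, from 0.68 to 1.85 for Myh6 probe 1 and from -4.51 to -1.10 for Myom1 probe 1, the smallest sizes of the latter 2 being with normexp, whose offset compresses dim signals. Leaving out both arrays that stand apart, chosen after seeing the data, changed no count. Scaling moved the median of all probes by under 0.1. Dim signal limits Myh3, Myh6, Myom1 probe 1, 3 of the 4 Myh8 probes and the Tnni1 probe with the larger difference.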
